A study of Mus musculus with 20 samples.

Results

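The Toll-like receptor family is described here as transcript levels of Tlr1 to Tlr9 and Tlr13 in macrophages of the mouse cranial dura mater. The members were found by gene symbol, without a cut on any measured value, and gave 10 of the 33243 gene symbols in the count table. Which symbols to take was settled with earlier results of these data known. Tlr11 and Tlr12 are not among them and were placed in a list of pathway genes given below. All 10 were among the 16632 genes that entered the tests, which needed a total of at least 10 counts over the 20 libraries. Toll-like receptors are membrane proteins of innate immune cells that bind conserved microbial molecules. Some members sit at the cell surface and bind components of microbial walls and flagella, whereas others sit in endosomes and bind nucleic acids. All but TLR3 signal through the adaptor MyD88, and TLR4 with its partners CD14 and MD-2 is the receptor for lipopolysaccharide (LPS), the stimulus used in these mice.

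Dural CNS-associated macrophages (dCAMs) were sorted as CD45int CD11b+ CD206int-high cells and sequenced in bulk. All 10 mice, controls included, carried Ccr2creERT2/+ R26tdT/tdT, a tamoxifen-inducible Cre that turns on the red fluorophore tdTomato (tdT) in cells expressing Ccr2, the chemokine receptor of classical monocytes, at the time of tamoxifen. All mice also received 200 mg/kg of the CSF1R inhibitor BLZ945 by gavage on 7 consecutive days, which depletes macrophages, and 2 mg tamoxifen on the day of the last gavage and 2 and 4 days after it. The dura was taken 8 weeks later, 12 h after an injection of 2.5 mg/kg LPS (mice 54, 56, 59, 60 and 61) or of PBS (the CTL mice 174, 175, 177, 178 and 179). Each mouse gave 1 tdT+ and 1 tdT- library, so the 4 groups (tdT- CTL, tdT+ CTL, tdT- LPS, tdT+ LPS) held 5 libraries each, and replicates were separate mice. The labels give no age, and no mouse without BLZ945 was analysed here. A tdT- cell is any cell in the gate that did not recombine.

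The libraries held 6017650 to 18925908 gene counts. Genes with at least 10 counts numbered 7828 on average in tdT- CTL and 10366 in tdT+ CTL libraries, and under LPS 11457 in tdT- and 11490 in tdT+ libraries, so that the tdT- CTL libraries stood apart by many genes at or near 0. Of the 50 member values in that group, 14 (28%) were at or under 3 counts, against 3 (6%) in tdT+ CTL. Among LPS libraries 1 (2%) was in tdT- and 0 in tdT+. Among the 7 members averaging at least 4 on the log2 CPM scale (all but Tlr3, Tlr6 and Tlr9), 4 of 35 values (11.4%) in tdT- CTL were at that floor, where the share over the 5823 genes as abundant was 8.37%. The tdT- library of mouse 179 stood apart from those of the other 4 CTL mice for several members (Tlr1, Tlr3, Tlr4 and Tlr13). Its difference from the tdT+ library ran the other way for Tlr1, Tlr3 and Tlr13, and the same way but smaller for Tlr4. Results of these members are also given without that library, a choice made after seeing the data. Leaving it out takes away a library that opposed or weakened these differences. The p-values and calls without it, here and below, therefore do not stand as separate support. All 11 dural macrophage marker genes were over 3 counts in every library, with summed levels of 6093 to 12075 CPM in tdT- CTL, 13939 to 16155 in tdT+ CTL, and under LPS 7158 to 8204 in tdT- and 8582 to 10688 in tdT+.

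Levels are given as CPM, TMM-scaled counts per 1000000 counts, in the mouse order above, with SD over 5 libraries. Between genes they are compared only as CPM per kilobase of exon. On that scale Tlr2 had the highest level over the 20 libraries with 187 CPM per kb, followed by Tlr13 with 54.7, Tlr7 with 51.9, Tlr8 with 37.9, Tlr4 with 21.6, Tlr1 with 20.5, Tlr5 with 10.2, Tlr3 with 7.94, Tlr6 with 7.35 and Tlr9 with 0.276. Tlr2 stood above the next member without overlap of libraries in each of the 4 groups. Neighbours further down the order mostly overlapped. In both LPS groups Tlr8 stood above Tlr4 without overlap, in tdT- LPS Tlr1 stood above Tlr6, and in both LPS groups Tlr9 lay below every other member without overlap. In tdT+ CTL the highest Tlr9 library, at 2.19 CPM per kb, exceeded the lowest Tlr6 library, at 1.76.

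Summed over the 10 members, the family level was 236 ± 42.9 CPM per kb in tdT- CTL and 346 ± 58.2 in tdT+ CTL. Under LPS the sum was 468 ± 62.6 in tdT- and 546 ± 49.4 in tdT+ dCAMs. The ranges under LPS, 417 to 569 in tdT- and 494 to 614 in tdT+, lay above those of their own controls, 179 to 280 and 271 to 433. Tlr2 made up 49.5%, 44.6%, 47.7% and 46.2% of the sum in tdT- CTL, tdT+ CTL, tdT- LPS and tdT+ LPS. The endosomal members Tlr3, Tlr7, Tlr8, Tlr9 and Tlr13 together made up 32.3%, 37.1%, 39.5% and 40.1%, and in tdT- CTL libraries their share ranged from 12.8% to 56.6%. The stacked bars show this makeup library by library.

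**Figure D1:**
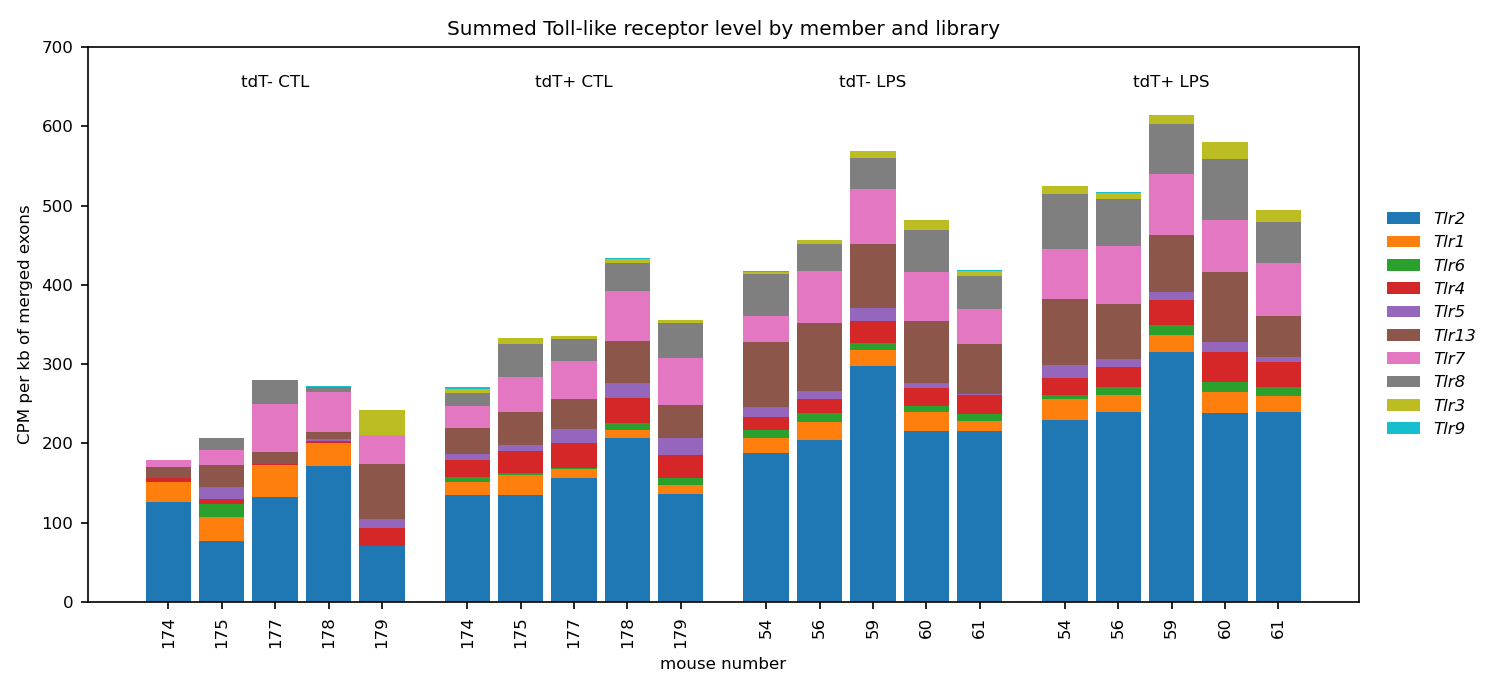
Level of the Toll-like receptor family in each library, in CPM per kilobase of exon (y axis), as stacked bars coloured by member, for the 4 groups of 5 libraries (x axis). Tlr2 is the largest block in every group mean, and the summed level is higher in LPS (417 to 614) than in the matching CTL libraries (179 to 433).

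The first comparison asked how the members respond to LPS in each population. In tdT- dCAMs 2 of the 10 members rose under LPS, Tlr13 and Tlr4, at an adjusted p under 0.05 and a change above 1 on the log2 scale, where 11.5% of all genes tested were called. Tlr2, the most abundant member, passed the adjusted p but not the fold. By adjusted p alone these 3 members passed, against 12.5% of all genes. In tdT+ dCAMs 0 members were called, where 5.89% of all genes were, and by adjusted p alone also 0, where 6.61% of genes passed. The DESeq2 Wald test and limma-voom with the mouse as a block also called 0 members in tdT+ dCAMs, although with the block Tlr2 at 0.73 (adjusted p = 0.0108) and Tlr13 at 0.76 (adjusted p = 0.0451) passed the adjusted p without the fold. An edgeR fit of the 10 tdT+ libraries alone called 1 member, Tlr3, so the 0 calls depend on the fit. At an unadjusted p under 0.05, 4 members passed in tdT- and 2 in tdT+ dCAMs with the edgeR quasi-likelihood test. The median log2 fold change over the 10 members was 1.13 in tdT- and 0.67 in tdT+ dCAMs, beside 0.02 and 0.01 over all genes tested, with 9 and 8 members positive. In bulk samples, fewer cells of a type and less RNA per cell cannot be told apart.

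Tlr13 and Tlr2 carried the clearest LPS values, and the sequence before their first annotated exon is shown here for that reason. Both are RefSeq promoter sequence of build GRCm38.p6, read 5′ to 3′ on the gene's strand. Tlr2 lies on the minus strand and is shown at chr3:83841768-83841858, and Tlr13 on the plus strand at chrX:106143025-106143203. Capitals mark a match to the kappaB motif, the site bound by NF-kappaB, and the Tlr13 stretch has none.
Tlr2: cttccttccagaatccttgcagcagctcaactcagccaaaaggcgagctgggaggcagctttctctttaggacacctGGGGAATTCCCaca
Tlr13: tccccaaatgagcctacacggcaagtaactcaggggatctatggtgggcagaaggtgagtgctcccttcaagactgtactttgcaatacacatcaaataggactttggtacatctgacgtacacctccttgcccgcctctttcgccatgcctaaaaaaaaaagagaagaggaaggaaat
Of the 10 members, 8 had a promoter entry (Tlr4 and Tlr7 had none), and matches were sought on both strands in the 250 bases before each start. The kappaB motif was matched in 2 of these 8 members, Tlr2 and Tlr3, and in 3.9% of 32851 promoters. In Tlr2 it gave 2 overlapping matches, 173 and 172 bases before the RefSeq start site, and in Tlr3 1 match at 211 bases. The PU.1 motif GAGGAAGT was matched only in Tlr1, 23 bases before the start, and in 2.44% of promoters. The interferon response core GAAANNGAAA was matched only in Tlr6, with 2 overlapping matches 116 and 110 bases before the start, and in 2.98% of promoters. A match is a description of letters and not a bound site.

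Among the surface receptors, Tlr2 (GRCm38 chromosome 3, 83836272 to 83841767, minus strand) binds bacterial lipoproteins as a heterodimer with TLR1 or TLR6. It measured 381, 233, 400, 516 and 212 CPM in tdT- CTL and 407, 408, 470, 625 and 410 CPM in tdT+ CTL libraries. After LPS it measured 567, 617, 897, 651 and 650 CPM in tdT- and 693, 722, 952, 719 and 722 CPM in tdT+ libraries. Every LPS library stood above every CTL library of its own population. Of all genes, 9.32% in tdT- and 10.6% in tdT+ dCAMs were higher under LPS without overlap, and 2 members in tdT- (Tlr2 and Tlr8) and 3 in tdT+ (Tlr2, Tlr7 and Tlr8) were. The log2 fold change of Tlr2 was 0.96 ± 0.22 (SE) in tdT- dCAMs (1.94-fold, adjusted p = 0.00556, edgeR quasi-likelihood test with Benjamini-Hochberg adjustment) and 0.72 ± 0.22 in tdT+ dCAMs (adjusted p = 0.0550). With the mouse as a block in limma-voom, the change in tdT- dCAMs was 1.03 (adjusted p = 0.000769) and past the fold threshold.

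Tlr4 (chromosome 4, 66827584 to 66930284, plus strand) is the LPS receptor itself. In tdT- CTL libraries it measured 28.5, 34.8, 5.77, 14.7 and 122 CPM, and in tdT+ CTL libraries 119, 153, 171, 172 and 158 CPM. In LPS mice the values were 91.1, 101, 157, 124 and 130 CPM in tdT- and 118, 137, 179, 214 and 171 CPM in tdT+ libraries. The group that stood apart was tdT- CTL, in which 4 libraries lay below all others and that of mouse 179 lay among the LPS values. Tlr4 rose under LPS in tdT- dCAMs by 1.56 ± 0.51 on the log2 scale (2.94-fold, edgeR adjusted p = 0.0495), and without the tdT- library of mouse 179 by 2.53 (adjusted p = 0.000158). Of the 23 alternative processing settings tried, this call held in 5, with adjusted p up to 0.199. In tdT+ dCAMs the value was 0.08 ± 0.50 (adjusted p = 0.994). The difference between the populations in their LPS effects was -1.47 ± 0.71 (95% interval -2.95 to 0.00275), with an unadjusted p of 0.0504 and an adjusted p of 0.383 in edgeR. It was -2.21 (adjusted p = 0.0492) with the mouse as a block and -2.45 (adjusted p = 0.0122) without the tdT- library of mouse 179. That removal takes out the library that weakened the effect, so the values without it are a description only.

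Tlr1 (chromosome 5, 64924679 to 64933563, minus strand) and Tlr6 (chromosome 5, 64952031 to 64960097, minus strand) are neighbouring and similar genes whose proteins pair with TLR2, and how reads matching both were counted is not given in the sources used here. Tlr1 measured 82.2, 99.5, 136, 99.5 and 1.31 CPM in tdT- CTL and 54.2, 81.6, 38.4, 34.5 and 38.7 CPM in tdT+ CTL libraries. Under LPS it measured 61.5, 75.5, 66.7, 77.2 and 42.3 CPM in tdT- and 86.1, 72.8, 69.0, 89.3 and 66.5 CPM in tdT+ libraries. The tdT- CTL library of mouse 179 was the lowest of all 20, and CTL and LPS values overlapped in both populations. The LPS effect on Tlr1 was -0.37 ± 0.59 in tdT- and 0.63 ± 0.59 in tdT+ dCAMs (edgeR adjusted p = 0.723 and 0.671). Without the tdT- library of mouse 179 the tdT- value was -0.69 (adjusted p = 0.124), and with the mouse as a block in limma-voom it was 0.46 (adjusted p = 0.639).

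Tlr6 measured 0, 61.9, 0.123, 0.677 and 1.44 CPM in tdT- CTL and 24.3, 11.4, 6.57, 32.8 and 35.3 CPM in tdT+ CTL libraries. After LPS its values were 37.3, 41.2, 34.6, 32.6 and 33.6 CPM in tdT- and 19.0, 38.4, 47.1, 44.1 and 45.6 CPM in tdT+ libraries. In tdT- CTL 4 libraries lay below all LPS libraries and that of mouse 175 lay above them all. The LPS effect of 1.48 ± 1.15 in tdT- dCAMs had an adjusted p of 0.408 in edgeR, and without the tdT- library of mouse 175 it was 5.96 (adjusted p = 0.000112). That removal was chosen after seeing the data and takes out the library that opposed the effect. The value then rests on controls of 0 to 1.44 CPM, so its p does not stand as separate support. In tdT+ dCAMs it was 0.81 ± 1.13 (adjusted p = 0.822).

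The flagellin receptor Tlr5 (chromosome 1, 182954788 to 182976044, plus strand) measured 0, 73.3, 0.246, 7.45 and 57.2 CPM in tdT- CTL and 35.4, 34.8, 86.9, 87.8 and 102 CPM in tdT+ CTL libraries. In LPS mice it measured 60.0, 47.6, 73.6, 31.2 and 4.96 CPM in tdT- and 83.3, 51.6, 45.6, 58.6 and 34.6 CPM in tdT+ libraries. Its CTL and LPS libraries overlapped in both populations. The LPS effect was 0.65 ± 1.03 in tdT- (edgeR adjusted p = 0.719) and -0.34 ± 1.02 in tdT+ dCAMs, neither of which exceeded its error.

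**Figure D2:**
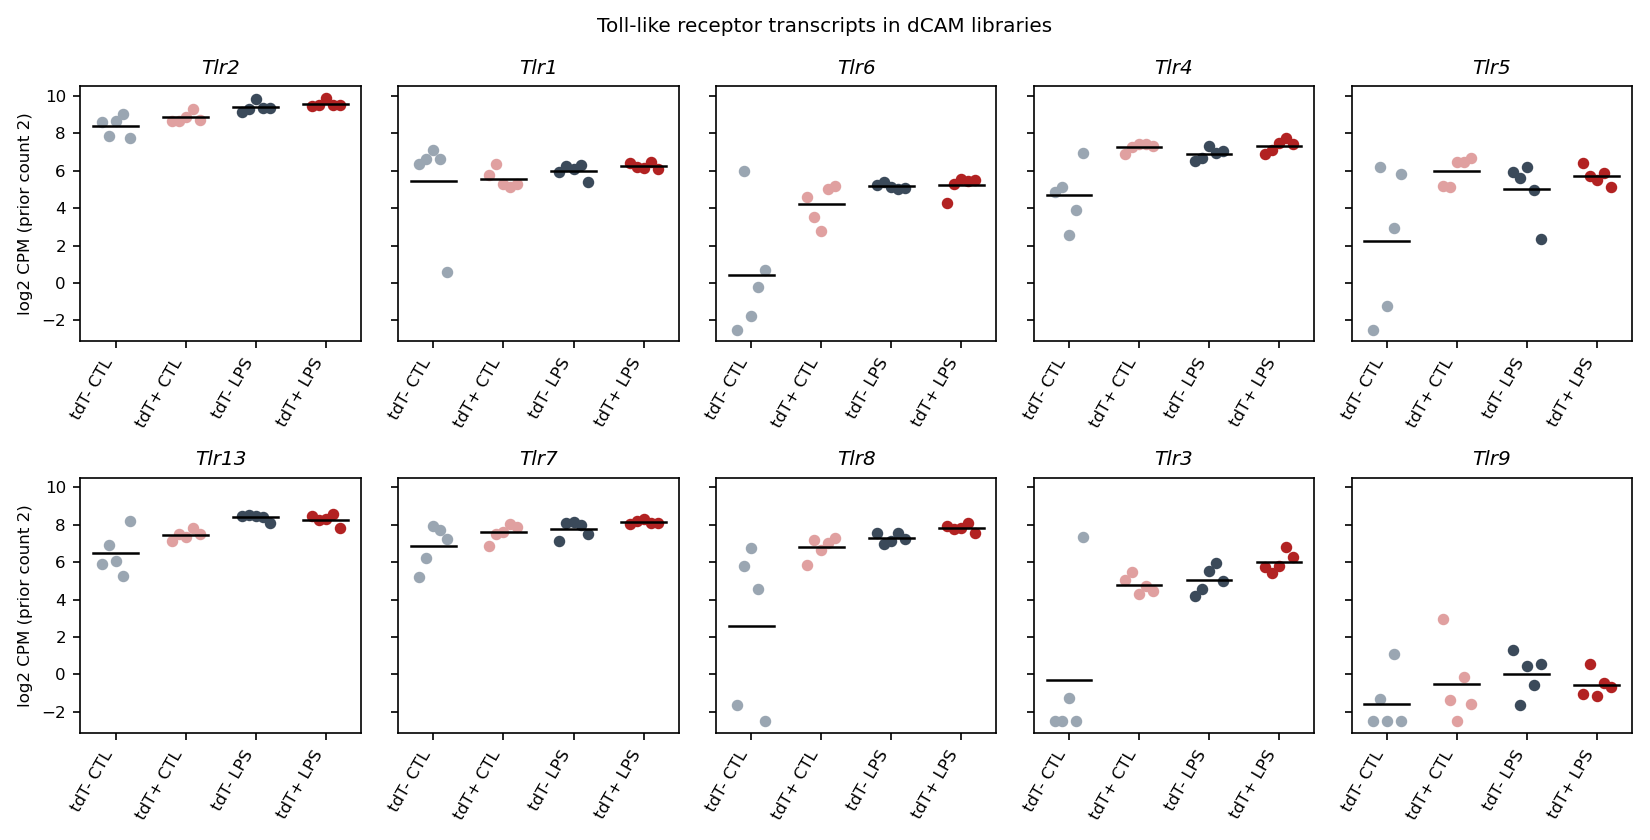
Level of each member on the log2 CPM scale with a prior count of 2 (y axis) in the 20 libraries, 1 panel per member, with 5 points in each of the 4 groups (x axis) and a black line at the group mean. The tdT- CTL points are widely spread, as for Tlr3 from 0 to 164 CPM and for Tlr4 from 5.77 to 122 CPM, while the mean of Tlr2 is highest and that of Tlr9 lowest in every group.

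Among the endosomal receptors, Tlr13 (chromosome X, 106143204 to 106160493, plus strand), which binds bacterial ribosomal RNA, was the only one that passed the test under LPS. Its values were 60.4, 121, 65.3, 38.3 and 294 CPM in tdT- CTL and 139, 180, 164, 229 and 182 CPM in tdT+ CTL libraries. In LPS mice they were 353, 367, 348, 337 and 271 CPM in tdT- and 354, 299, 310, 378 and 222 CPM in tdT+ libraries. In tdT- dCAMs the only overlap was the CTL library of mouse 179 with the LPS library of mouse 61, and in tdT+ dCAMs the only overlap was the CTL library of mouse 178 with, again, the LPS library of mouse 61. Tlr13 rose in tdT- dCAMs by 1.53 ± 0.39 on the log2 scale (2.89-fold, edgeR adjusted p = 0.0110), a call that held in 22 of 23 alternative settings with values of 1.31 to 2.23. The exception was the fit of the 10 tdT- libraries alone (adjusted p = 0.102), and the highest value came without the tdT- library of mouse 179 (adjusted p = 1.55e-05). In tdT+ dCAMs the value was 0.81 ± 0.38 (unadjusted p = 0.0464, adjusted p = 0.245), and the difference between the populations was -0.73 ± 0.54 (adjusted p = 0.705).

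Tlr7 (chromosome X, 167304929 to 167330558, minus strand) and Tlr8 (chromosome X, 167242696 to 167264329, minus strand) are neighbouring receptors of single-stranded RNA. Tlr7 measured 36.4, 75.3, 246, 207 and 152 CPM in tdT- CTL and 116, 183, 197, 257 and 238 CPM in tdT+ CTL libraries. Under LPS it measured 138, 267, 285, 251 and 182 CPM in tdT- and 260, 294, 312, 269 and 271 CPM in tdT+ libraries. Its tdT- groups overlapped, while the 5 tdT+ LPS libraries lay above the 5 tdT+ CTL libraries by a narrow gap, from 257 to 260 CPM. The LPS effect was 0.65 ± 0.37 in tdT- and 0.50 ± 0.37 in tdT+ dCAMs (edgeR adjusted p = 0.241 and 0.533).

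Tlr8 measured 0.152, 54.6, 108, 23.8 and 0 CPM in tdT- CTL and 56.5, 147, 98.5, 130 and 159 CPM in tdT+ CTL libraries. In LPS mice its values were 186, 123, 140, 190 and 151 CPM in tdT- and 247, 215, 230, 276 and 186 CPM in tdT+ libraries. Its groups did not overlap in either population, with every LPS library above every CTL library. The tdT- CTL libraries ranged widely, and the LPS effect of 2.08 ± 0.94 in tdT- dCAMs had an adjusted p of 0.143, and that of 0.97 ± 0.91 in tdT+ dCAMs one of 0.674 (edgeR). With the mouse as a block in limma-voom the value in tdT- dCAMs was 5.03 (adjusted p = 0.00252).

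The receptor of double-stranded RNA, Tlr3 (chromosome 8, 45395665 to 45411080, minus strand), measured 0, 0, 0.246, 0 and 164 CPM in tdT- CTL and 32.3, 43.6, 19.7, 26.4 and 21.7 CPM in tdT+ CTL libraries. After LPS it measured 18.2, 23.8, 45.2, 62.0 and 31.6 CPM in tdT- and 53.7, 41.8, 54.3, 111 and 77.2 CPM in tdT+ libraries. The tdT- library of CTL mouse 179, with 1253 counts, was the highest of all 20, and the other 4 of its group were at or under 3 counts, which is worth 0.329 to 0.455 CPM there. With all libraries the LPS effect was 0.14 ± 1.39 in tdT- dCAMs (edgeR adjusted p = 0.979) and 1.23 ± 1.41 in tdT+ dCAMs (adjusted p = 0.749). Without the tdT- library of mouse 179 the fitted value in tdT- dCAMs was 8.97 (adjusted p = 8.42e-07), which depends on the prior count. Against the 4 tdT- CTL libraries at the floor, taken per library, the mean of tdT- LPS was at least 79.4-fold higher. Those 4 libraries were picked for their low values, so this fold is no bound for the group. With the library of mouse 179 included, the means were 32.8 CPM in tdT- CTL and 36.1 CPM in tdT- LPS.

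Tlr9 (chromosome 9, 106222598 to 106226883, plus strand), the receptor of unmethylated CpG DNA, was close to the limit of detection. Its 20 libraries held 192 counts in all, 8 of them at or under 3 counts and the highest at 47. The levels ranged from 0 to 1.92 CPM in tdT- CTL, 0 to 7.63 in tdT+ CTL, and under LPS 0.149 to 2.32 in tdT- and 0.278 to 1.32 in tdT+ libraries. A difference between groups was not detectable at this depth, with LPS effects of 1.31 ± 1.53 in tdT- (edgeR adjusted p = 0.606) and -1.56 ± 1.54 in tdT+ dCAMs. The errors are those of the edgeR fit and include the spread between libraries. All libraries were PCR amplified without molecular identifiers.

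**Figure D3:**
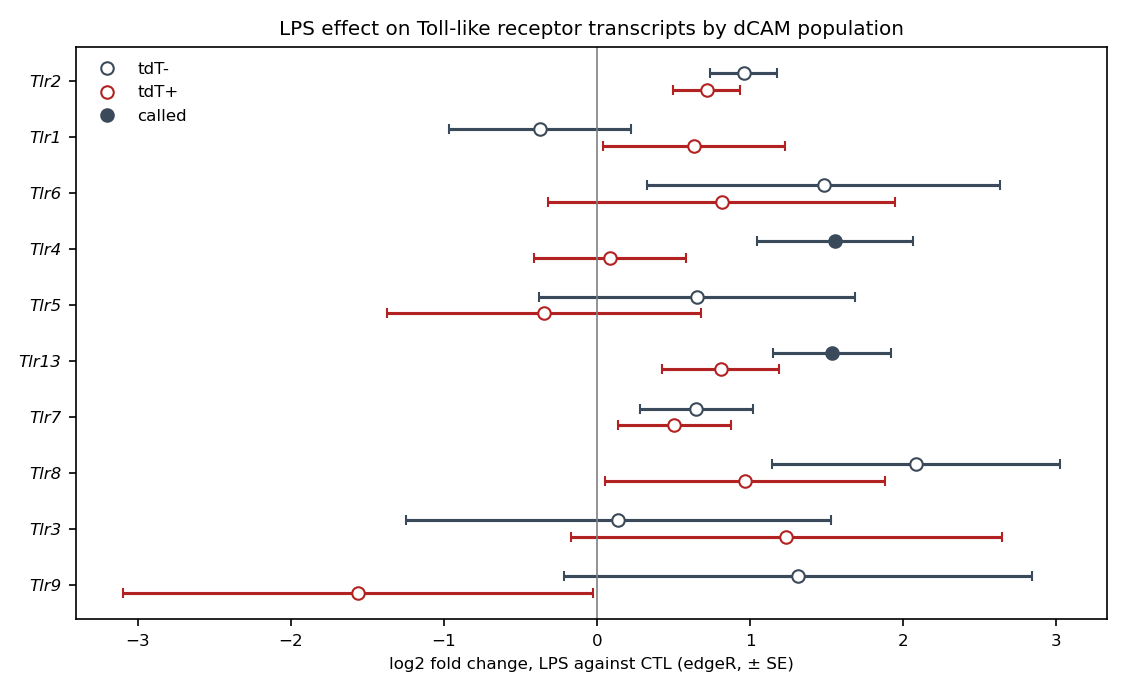
Log2 fold change of LPS against CTL (x axis) for each member (y axis) in tdT- (dark) and tdT+ (red) dCAMs, with bars of 1 SE from edgeR and filled points for calls. The filled points are Tlr13 at 1.53 and Tlr4 at 1.56 in tdT- dCAMs, and the widest bars belong to Tlr9, Tlr3 and Tlr6.

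With the mouse as a block in limma-voom, 6 members rose under LPS in tdT- dCAMs in place of 2, namely Tlr2, Tlr3, Tlr4, Tlr6, Tlr8 and Tlr13. The share of all genes called in that fit was not determined, so a gain particular to the members cannot be told from more calls in general. Depth and marker lists moved with the treatment. The summed level of neutrophil markers was 1.87 to 181 CPM in tdT- CTL, 0.733 to 31.1 in tdT+ CTL, and under LPS 262 to 823 in tdT- and 244 to 571 in tdT+ libraries, with the defining marker Ly6g at or under 3 counts in both CTL groups and in tdT+ LPS. The summed level of dendritic cell markers moved the other way, at 553 to 3334 and 220 to 401 CPM in tdT- and tdT+ CTL and 26.0 to 89.5 and 12.7 to 64.4 CPM in tdT- and tdT+ LPS libraries. Of that list the defining marker Xcr1 was at or under 3 counts in every library, and Clec9a in every library of tdT- CTL and tdT+ LPS. The part of depth and of these lists in the members' values was not tested.

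The second comparison asked whether tdT+ and tdT- dCAMs of the same mice differ. In CTL mice 1 of the 10 members was called, Tlr4, which was 1.91 ± 0.52 higher in tdT+ dCAMs on the log2 scale (3.76-fold, edgeR adjusted p = 0.0363), where 4.28% of all genes were called. The ratio of tdT+ to tdT- Tlr4 CPM was 4.17, 4.39, 29.6, 11.7 and 1.29 in mice 174, 175, 177, 178 and 179. It was above 1 in 5 of 5 mice, as was that of Tlr2, where 5.85% of all genes were higher in tdT+ in 5 of 5. The Tlr4 difference was called in 10 of 24 alternative settings, with values of 1.59 to 2.90 and adjusted p up to 0.642. Without the tdT- library of mouse 179 it was 2.88 (adjusted p = 0.000181), and with the mouse as a block in limma-voom 2.64 (adjusted p = 0.00449). In an edgeR fit of the 10 CTL libraries alone with the mouse as a block it was 2.58 ± 0.77 (adjusted p = 0.642) and was not called.

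The other members did not pass in CTL mice. Tlr8 was 1.66 ± 0.93 higher in tdT+ dCAMs (edgeR adjusted p = 0.295), Tlr13 0.63 ± 0.38 (adjusted p = 0.342, higher in 4 of 5 mice) and Tlr2 0.41 ± 0.22 (adjusted p = 0.263). Among the 7 abundant members named above for their mean level, only Tlr1 had a negative value, -0.76 ± 0.60, and it was higher in tdT+ in 1 of 5 mice. The median over the 10 members was 0.70. With the mouse as a block, 5 members were called in place of 1, namely Tlr3, Tlr4, Tlr5, Tlr6 and Tlr8. Without the tdT- library of mouse 179, 4 members were called, with Tlr3, Tlr4 and Tlr13 higher and Tlr1 lower in tdT+ dCAMs. For neither setting was the share of all genes called determined. For Tlr3 the mean of the 5 tdT+ CTL libraries was at least 63.2-fold above each of the 4 tdT- libraries at the floor. That mean includes mouse 179, whose own tdT- library was left out and held more Tlr3 than its tdT+ library. It is therefore no bound for single mice.

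Other measures differed between the populations in the same CTL mice. Besides the number of genes detected and the dural macrophage sum given above, monocyte markers summed to 548 to 1095 CPM in tdT- and 160 to 467 CPM in tdT+ CTL libraries. Fibroblast markers reached from 10.9 to 3993 CPM across tdT- CTL libraries. The part of these in the Tlr4 difference was not tested.

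In LPS mice 0 members were called between tdT+ and tdT- dCAMs, where 0.0301% of all genes were, and 0 passed at an unadjusted p under 0.05 in edgeR. The Tlr4 ratios of tdT+ to tdT- were 1.30, 1.35, 1.14, 1.72 and 1.31 in mice 54, 56, 59, 60 and 61. Tlr2, Tlr3, Tlr4, Tlr7 and Tlr8 were each higher in tdT+ dCAMs in 5 of 5 LPS mice, where 5.19% of all genes were. All adjusted p-values were 1 in that fit of 20 libraries, and the median over the members was 0.29. In an edgeR fit of the 10 LPS libraries alone with the mouse as a block, Tlr8 at 0.56 ± 0.10 (adjusted p = 0.0287) and Tlr3 at 0.96 ± 0.19 (adjusted p = 0.0494) were higher in tdT+ dCAMs by the adjusted p, both short of the fold threshold. DESeq2 and limma-voom with the mouse as a block called 0.

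**Figure D4:**
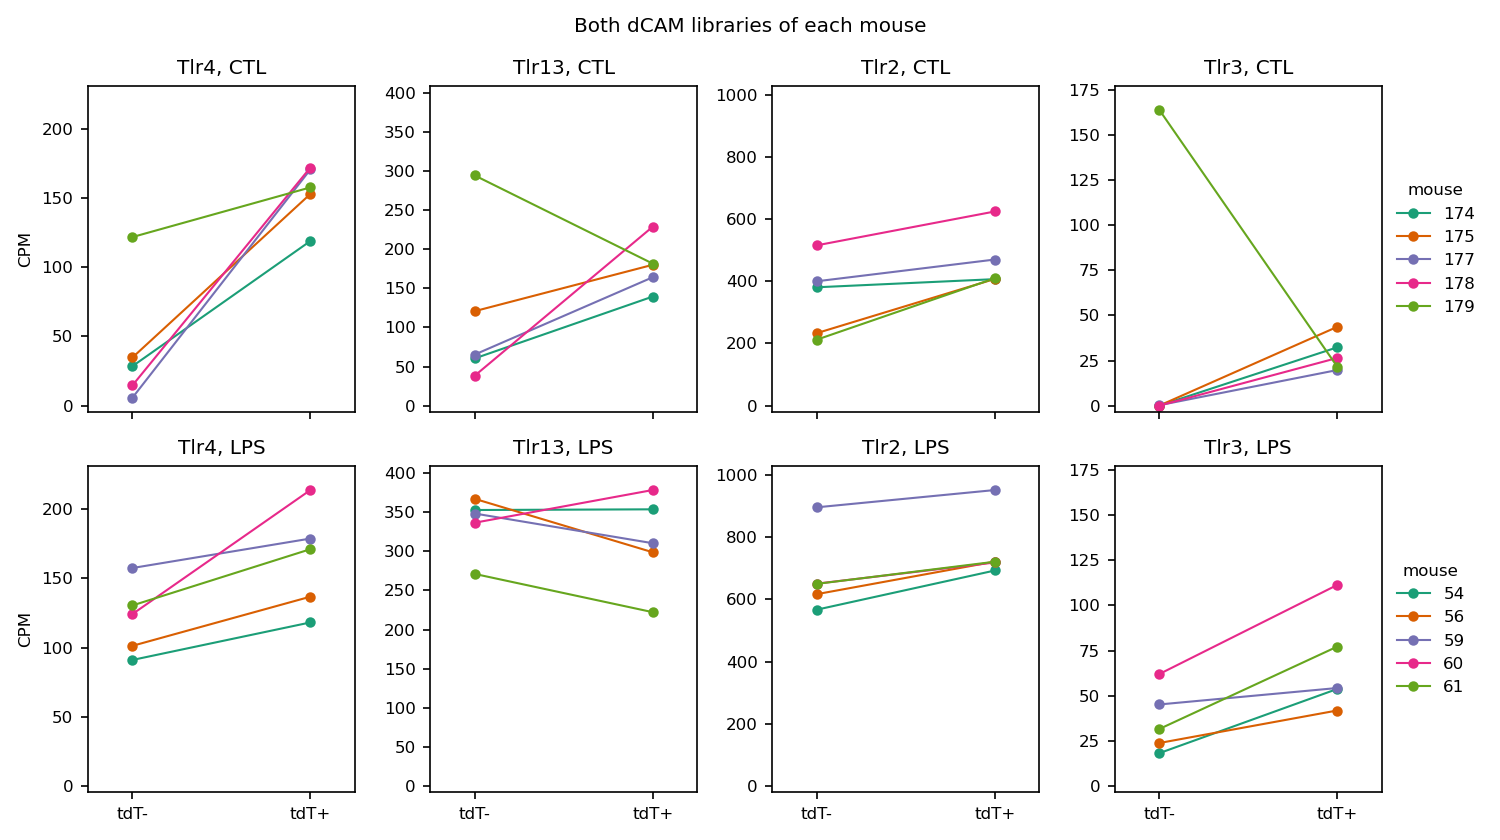
CPM of Tlr4, Tlr13, Tlr2 and Tlr3 (y axes) in the tdT- and the tdT+ library of each mouse (x axis), joined by 1 line per mouse, with CTL mice in the upper and LPS mice in the lower panels. For Tlr4 4 of the 5 CTL lines climb from 5.77 to 34.8 up to 119 to 172 CPM while that of mouse 179 starts at 122, and for Tlr3 the line of mouse 179 descends from 164 CPM.

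The difference of the LPS effects between the populations was called for 0 members, where 1.26% of all genes were, and 0 members passed at an unadjusted p under 0.05 in edgeR. DESeq2 also called 0, and with the mouse as a block in limma-voom 1 member was called, Tlr4. Without the tdT- library of CTL mouse 179, 3 members were called, Tlr3, Tlr4 and Tlr13 (for Tlr13 -1.43, adjusted p = 0.0455), each with a smaller LPS effect in tdT+ dCAMs. The share of all genes called was not determined for these alternative fits. The mice were also titled F or M (5 of each). Xist averaged 88.0 CPM in F and 0.0184 CPM in M mice on counts summed per mouse. The Y-linked genes Ddx3y and Eif2s3y were at 0 in F and averaged 101 and 89.8 CPM in M mice, so the letters followed sex. On these sums 0 members were called between the letters, where 0.0301% of all genes were. The lowest unadjusted p belonged to Tlr2, at 471 CPM on average in F and 659 CPM in M mice. These means mix treatments, since F held 3 CTL and 2 LPS mice and M held 2 and 3. With treatment as a term the log2 difference was -0.36 ± 0.14 (edgeR quasi-likelihood test across all genes, unadjusted p = 0.0290, adjusted p = 0.897). No other member passed at an unadjusted p under 0.05, and DESeq2 called 0.

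Beyond the receptors, a list of 48 genes that serve Toll-like receptors was measured, and all 48 were tested. In each population 4 of them rose and 4 fell under LPS, and these were the same 8 genes (16.7% of the list, beside 11.5% of all genes in tdT- and 5.89% in tdT+ dCAMs). In edgeR 0 of the 48 were called between tdT+ and tdT- dCAMs in CTL mice (4.28% of all genes), between them in LPS mice (0.0301%) or in the difference of the LPS effects (1.26%), with 8, 2 and 2 genes at an unadjusted p under 0.05. The genes called were spread over co-receptors (1 rose and 2 fell of 6), chaperones and trafficking factors (1 fell of 5), processing of ligands and receptors (1 rose and 1 fell of 9), kinases and ligases (1 rose of 12) and inhibitors (1 rose of 9). None of the 5 adaptors and neither Tlr11 nor Tlr12 was called. A listed gene that was not called is not thereby shown to be unchanged.

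Among the co-receptors, Cd14, which hands LPS to TLR4, had mean levels of 1553 CPM in tdT- and 1760 CPM in tdT+ CTL libraries, against 5682 and 6924 CPM under LPS. It rose by 1.87 ± 0.20 in tdT- and 1.98 ± 0.20 in tdT+ dCAMs (edgeR adjusted p = 1.29e-06 and 6e-07). Other genes of this role moved the other way. Ly86, which encodes MD-1, the partner of the TLR4-like protein RP105, fell with log2 values of -1.75 ± 0.23 and -1.67 ± 0.23, and the scavenger receptor Cd36, which presents lipids to TLR2, fell with values of -3.08 ± 0.38 and -2.83 ± 0.38 in tdT- and tdT+ dCAMs. Ly96, which encodes the LPS-binding partner MD-2, had mean levels of 96.0, 76.2, 51.5 and 49.2 CPM in tdT- CTL, tdT+ CTL, tdT- LPS and tdT+ LPS. Its log2 values of -0.90 ± 0.29 (adjusted p = 0.0421) and -0.63 ± 0.28 (adjusted p = 0.220) stayed short of the fold threshold.

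Several listed genes serve the endosomal receptors. Unc93b1, the chaperone that carries these receptors to endosomes, averaged 1350 CPM in tdT- and 1739 CPM in tdT+ CTL libraries, against 929 and 1119 CPM under LPS. Its log2 values were -0.54 ± 0.12 and -0.64 ± 0.12 (edgeR adjusted p = 0.00466 and 0.00146), past the adjusted p but not the fold. Slc15a4, a lysosomal transporter, fell with values of -2.12 ± 0.66 in tdT- and -2.23 ± 0.66 in tdT+ dCAMs (adjusted p = 0.0377 and 0.0443), a call that held in 11 of 23 and 7 of 18 alternative settings. Pld4, an endosomal exonuclease that degrades single-stranded nucleic acid, fell with values of -2.09 ± 0.28 and -2.73 ± 0.29. Ctsl, a lysosomal protease that cleaves these receptors, rose by 2.15 ± 0.30 and 2.44 ± 0.30.

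In the signalling chain, Myd88 averaged 188, 127, 221 and 206 CPM in tdT- CTL, tdT+ CTL, tdT- LPS and tdT+ LPS, and its log2 values of 0.24 ± 0.35 and 0.70 ± 0.35 did not pass. The kinase gene Ikbke was at or under 3 counts in 4 of 5 libraries of each CTL group and reached 258 to 433 CPM in tdT- LPS and 301 to 535 CPM in tdT+ LPS libraries, without overlap. It rose in both populations (edgeR adjusted p = 0.00476 and 0.000735), and a fitted fold change against such low controls depends on the prior count. Tnfaip3, which encodes the deubiquitinase A20, an inhibitor of NF-kappaB signalling, rose by 1.19 ± 0.33 and 1.63 ± 0.34 (adjusted p = 0.0207 and 0.00306), a call that held in 17 of 23 alternative settings in tdT- dCAMs. The same pathway genes were therefore called in both populations, and the difference of the LPS effects passed for none of them.

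**Figure D5:**
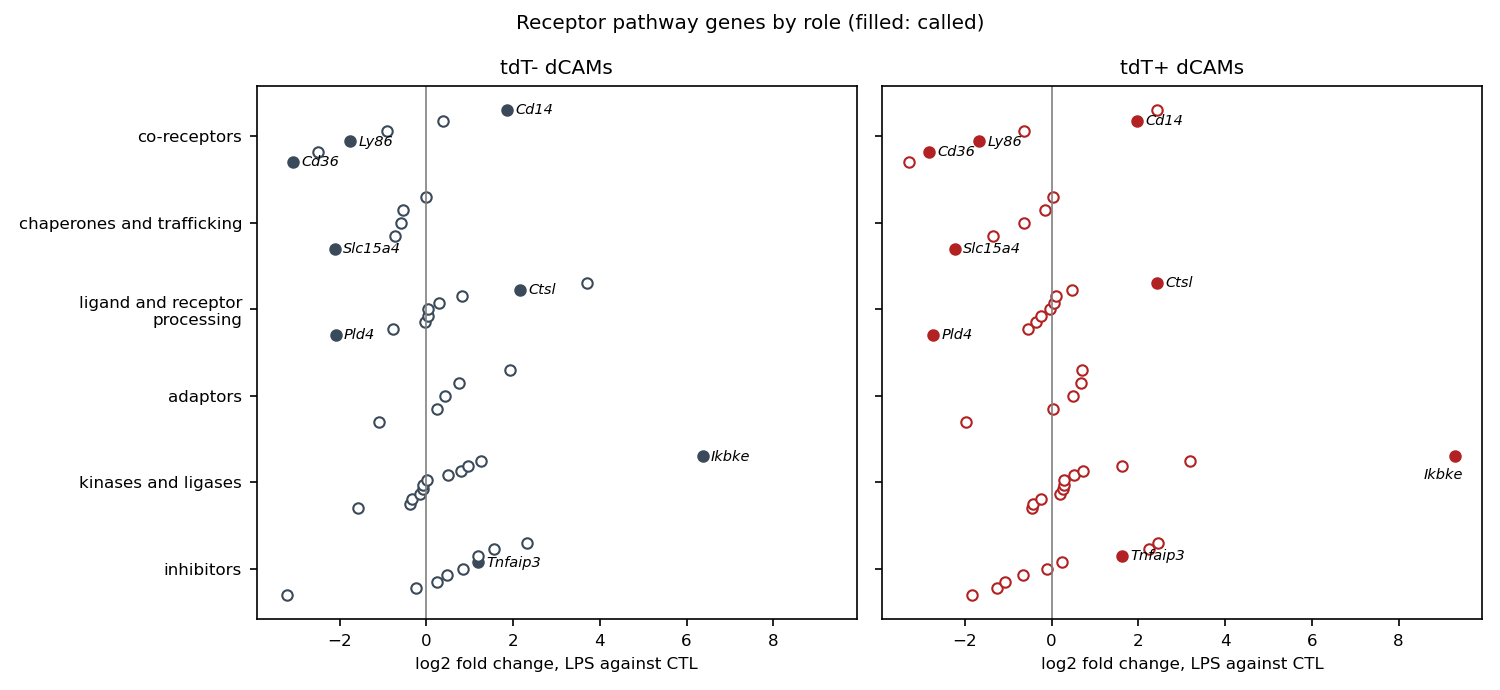
Log2 fold change of LPS against CTL from edgeR (x axis) for 46 pathway genes grouped by role (y axis), with tdT- dCAMs dark and tdT+ dCAMs red, and filled points for calls. The 8 called genes, Cd14, Ctsl, Ikbke and Tnfaip3 to the right of 0 and Cd36, Ly86, Pld4 and Slc15a4 to its left, are filled in both populations.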

How the data were processed

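Gene counts were deposited by the authors as 1 table of raw counts for the 20 libraries, made from SMART-Seq mRNA LP libraries (PCR amplified, without molecular identifiers) sequenced on an Illumina NextSeq instrument. The submitters' processing notes name bcl2fastq 2.20, STAR 2.7.11a, featureCounts 2.0.6 and DESeq2 1.46.0. The sources name more than 1 genome build, and the strand and multi-mapping settings of the counting are not given in the sources used here, so overlapping and near-identical genes may share reads. Gene positions are those of GENCODE M21 on GRCm38 and only locate the genes.

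Genes with a total of at least 10 counts (16632) were fitted over all 20 libraries with 1 mean per group by the quasi-likelihood test of edgeR 4.0.16 (R 4.3.3) after TMM scaling. Calls needed an adjusted p (Benjamini-Hochberg, over all genes tested) below 0.05 together with a log2 fold change beyond 1 in either direction. The SE is the log2 fold change divided by the square root of F. F and M mice were compared on counts summed per mouse with treatment as a term. The exon length is that of the merged exons.

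All 10 members were named in every comparison. Of the 48 pathway genes, Cd14, Ly96, Unc93b1, Myd88 and up to 3 called genes per role with the smallest p were named. For each member with a mean log2 CPM (prior count 2) of at least 4, the 3 genes with the highest correlation were named. Members, lists and tests were chosen with earlier results of these data known.

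Both libraries of a mouse come from the same animal, which is where the pairing comes from. Their deviations from the group means correlated at -0.00460 to 0.0461 in CTL and 0.228 to 0.449 in LPS mice, and the consensus correlation was 0.0418. The mouse was a block in limma 3.58.1 voom with a span of 0.2, because the trend at the default span of 0.5 fell to -0.225. Other alternatives were DESeq2 1.42.0, other scaling and filters, quality weights, the letter F or M as a covariate, fits of 10 libraries and leaving out mice or, chosen after seeing the data, single tdT- CTL libraries. The scripts were tested on simulated counts. No 2 libraries of a group agreed within sampling noise.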

Additional observations from a re-analysis of the deposited data

Results flagged for a closer look

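In 5 of the 40 sets of 5 libraries (10 members in 4 groups) the highest or lowest library stood farther from its nearest neighbour than Dixon's 95% limit for 5 samples allows, and chance alone gives about 1 in 20, or 2 of 40. On the log2 CPM scale, Tlr1 in the tdT- CTL library of mouse 179 was lowest at 0.57. Tlr3 in the same library was highest at 7.36, where the next value was -1.24. Tlr2 in the tdT+ LPS library of mouse 59 was highest at 9.90. Tlr6 in the tdT+ LPS library of mouse 54 was lowest at 4.26, and Tlr13 in the tdT- LPS library of mouse 61 was lowest at 8.08. Their causes were not tested.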

How the results depend on the processing

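Under LPS in tdT- dCAMs, where 2 members were called, 1 was called with the size factors of DESeq2, with no filter beyond 1 count, with filterByExpr, with the letter F or M as a covariate and without the tdT- library of mouse 174, and 0 with the 10 tdT- libraries alone. Leaving out mice gave 1 to 3 members. In tdT+ dCAMs the 0 calls became 1, Tlr3, with the 10 tdT+ libraries alone. For tdT+ against tdT- dCAMs in CTL mice, where 1 member was called, leaving out mice gave 0 to 3, and leaving out single tdT- CTL libraries gave 0 (mice 174 and 178), 2 (mouse 175) or 4 (mouse 179). There 0 members were called with quality weights and with the 10 CTL libraries, alone or with the mouse as a block in edgeR. The 0 calls in the difference of the LPS effects became 1 without mouse 175, 2 without mouse 179, and 1 or 3 without the tdT- library of the one or the other. With the mouse as replicate block in limma-voom, the calls were 6 members and 15 pathway genes under LPS in tdT- dCAMs, 5 members between the populations in CTL mice and 1 in the difference. Test and block changed together there, and voom enters a count of 0 with an offset, so their parts were not separated. That block changed no member count in tdT+ dCAMs under LPS or between the populations in LPS mice. The 8 pathway genes called in tdT+ dCAMs became 16 with quality weights and 13 with the 10 tdT+ libraries. Tlr3 turned its direction between the populations in CTL mice from -0.19 to 8.72 without mouse 179, 8.64 without its tdT- library and 6.0 with the mouse as a block, with -0.69 as the lowest value when a mouse was left out. In the difference of the LPS effects it turned from 1.10 to -7.82 without that mouse and -7.73 without that library, with 1.62 as the highest value when a mouse was left out. These fitted values rest on controls at the floor and depend on the prior count. Apart from the fit and library counts that a setting names, the cause of each move was not tested. The share of all genes called was taken for the reported edgeR fit only. Counts of called members or genes stayed within 1.5 times in 128 of 166 other computations, and of single-gene values 1573 kept their side of the threshold, 31 gained and 62 lost it. Under a mouse block, members also passed the adjusted p alone in tdT+ dCAMs under LPS and between the populations in LPS mice, as given above. Depth limits Tlr9. The spread among tdT- CTL libraries, whose cause was not tested, widens the errors of Tlr1, Tlr3, Tlr4, Tlr5, Tlr6, Tlr7, Tlr8 and Tlr13. The reported fit shares its estimate of the spread between the groups, so errors in tdT+ dCAMs are touched as well. For these members a p that misses the threshold does not show equal levels.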

Other observations

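The genes whose levels ran most like those of the abundant members over the 20 libraries are given as a description, with Pearson's r of log2 CPM among the 5823 genes with a mean of at least 4 and, in brackets, r after the group means were removed. The points share libraries, depth and the many values at or near 0 in the tdT- CTL group, so no p is given. For Tlr13 they were the complement gene C3 at 0.953 (0.852), the lymphoid and myeloid transcription factor gene Ikzf1 at 0.928 (0.833) and the oxidoreductase gene Ero1a at 0.927 (0.885). For Tlr2 they were Cemip2 at 0.895 (0.663), Ywhae at 0.880 (0.690) and Vps26a at 0.879 (0.712), the lowest values once the group means were removed. Tlr7 ran with Gm6377 at 0.891 (0.862), with Tbk1, a kinase of innate immune signalling on the pathway list, at 0.888 (0.903) and with Chtop at 0.888 (0.846).

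Tlr4 ran with Zfp110 at 0.950 (0.936), Gtpbp1 at 0.946 (0.939) and Nup214 at 0.933 (0.920). Tlr8 ran with Zdhhc5 at 0.988 (0.991), Tnpo3 at 0.980 (0.979) and Dennd10 at 0.977 (0.957). Tlr1 ran with Ndufs1 at 0.956 (0.963), Ciao2b at 0.953 (0.957) and Trnau1ap at 0.948 (0.954), and Tlr5 with Vps39 at 0.936 (0.901), Septin8 at 0.930 (0.914) and Atf7 at 0.921 (0.906). For these 4 members r was 0.901 or more with the group means removed, so that the likeness lay mainly between libraries of 1 group.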
